A study of Mus musculus with 28 samples.

Results

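The Myc, Max and Mnt network was followed as 9 genes, Myc, Mycn, Max, Mnt, Mxd1, Mxi1, Mxd3, Mxd4 and Mlx, taken by name from the authors' comparison tables, which list 22919 genes each. All 9 were found, and 9 of 9 had a test in each of the 7 comparisons. Mnt was chosen by its measured change in the libraries labelled shRai1 under TTX and under BIC, so these 2 contrasts of Mnt, and any other that uses the same libraries, are given as a description with no test, and the other members were added by family. The data are Bru-seq libraries, a method that feeds cells bromouridine, pulls down the RNA that took it up and sequences it, which reads recent transcription rather than the steady mRNA pool.

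The libraries came from forebrain cultures of CD1 mouse embryos at embryonic day 18, which per the labels held neurons, astrocytes and oligodendrocyte precursor cells, and each replicate pooled cortices and hippocampi of several embryos. All 6 groups were infected with lentivirus on day in vitro 14, carrying either a control hairpin RNA (shCtrl) or one that targets Rai1 (shRai1). On day 17 the cultures received water as vehicle, 1 µM tetrodotoxin (TTX, a sodium channel blocker that silences firing) or 20 µM bicuculline (BIC, a blocker of inhibitory GABA-A receptors that raises firing) for 4 hours, with bromouridine in the last 20 minutes. The 16 libraries were 2 of shCtrl vehicle, 2 of shCtrl BIC and 3 each of shCtrl TTX, shRai1 vehicle, shRai1 TTX and shRai1 BIC. The promoter that drives the shRNA and the share of infected cells are not given in the sources used here. The files used here hold 1 pooled level or 1 fitted change per condition, so no value per library and no depth per library can be given.

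Rai1 itself was not called lower in the libraries labelled shRai1: the authors' deposited tables give a log2 change against shCtrl of 0.16 (SE 0.073, adjusted p = 0.357) in vehicle, -0.12 (SE 0.064, adjusted p = 1.000) under TTX and 0.03 (SE 0.073, adjusted p = 1.000) under BIC. An shRNA acts on finished transcripts, which nascent RNA does not measure, so these values do not check the labels. Markers of the labelled cell types were present in the control arm. Their summed level was 588 to 674 FPKM for 9 neuron genes, 207 to 295 FPKM for 7 astrocyte genes and 163 to 191 FPKM for 8 oligodendrocyte-lineage genes, beside 21.5 to 31.2 FPKM for 6 genes of microglia, which the labels do not name, and 2.33 to 3.49 FPKM for 5 vascular and meningeal genes. Cldn5, a tight-junction protein of vessel walls, had a mean normalized count of 0 and no test in the comparison tables.

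Proteins of this network share a basic helix-loop-helix leucine zipper and bind DNA as pairs, most of them with Max as the common partner. Myc and Mycn, paired with Max, recruit histone acetyltransferases and activate genes of ribosome production, translation and metabolism. Mnt and the Mxd proteins compete for Max and recruit the Sin3 corepressor with its histone deacetylases, and Mlx pairs with Mnt, with Mxd proteins and with the glucose-sensing factors MondoA (Mlxip) and ChREBP (Mlxipl). All these pairs bind the E-box CACGTG. In brain, Mycn is known for the growth of neural progenitors, and Myc is an early-response gene in many cell types.

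Since the members encode E-box factors, the 250 bases before each annotated start were searched for the E-box. Its letters, CACGTG, read the same on both strands. RefSeq promoters of GRCm38.p6 were matched by symbol for 8 of the 9 members, in 10 windows because Mxi1 has several starts, and Myc was not matched. The E-box was found in 3 of the 10 windows, those of Mnt, Mxd4 and Mlx, and in 6.02% of 32851 windows of the same length over all genes. The windows of the other Mxd family genes, Mxd1, Mxd3 and Mxi1, held none, so Mxd4 does not stand for that family. Those 3 windows with the E-box are given because they hold it, 5′ to 3′ on the gene's strand, with the E-box in capitals.
Mnt: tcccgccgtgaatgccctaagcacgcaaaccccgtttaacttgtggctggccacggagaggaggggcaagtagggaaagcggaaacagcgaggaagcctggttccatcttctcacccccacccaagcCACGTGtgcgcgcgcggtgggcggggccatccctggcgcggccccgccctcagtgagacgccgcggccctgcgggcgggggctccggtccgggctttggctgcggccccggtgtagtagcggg
Mxd4: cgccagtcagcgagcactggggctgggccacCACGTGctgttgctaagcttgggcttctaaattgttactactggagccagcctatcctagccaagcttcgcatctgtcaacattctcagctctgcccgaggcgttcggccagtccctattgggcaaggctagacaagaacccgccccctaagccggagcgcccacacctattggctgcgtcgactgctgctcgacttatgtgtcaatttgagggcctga
Mlx: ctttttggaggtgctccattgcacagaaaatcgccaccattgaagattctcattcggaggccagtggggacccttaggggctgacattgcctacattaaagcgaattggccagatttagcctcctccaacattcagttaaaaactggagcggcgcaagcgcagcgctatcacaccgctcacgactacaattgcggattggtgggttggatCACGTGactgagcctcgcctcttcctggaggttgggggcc
The Mnt window is chr11:74830674-74830923 on the plus strand, with the E-box at bases 123 to 118 before the start. For Mxd4 the window is chr5:34187711-34187960 on the minus strand and the E-box lies 219 to 214 bases before the start. For Mlx it is chr11:101087040-101087289 on the plus strand, and the E-box lies 40 to 35 bases before the start. Neither the CRE TGACGTCA, the CREB site (1.55% of all windows), nor the AP-1 site TGANTCA (6.75% of all windows), both searched on both strands, was found in the 10 windows. A match is a description of these letters, and the data used here do not measure binding at any of these windows.

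In the control arm without drug, Mycn had the highest pooled level, 34.0 FPKM (bounds 25.8 to 42.3), and Mxi1 the lowest, 7.09 FPKM (5.13 to 9.06). FPKM are reads scaled by the length of the interval and the size of the library, here over the full gene length and with the authors' bounds. Mnt followed Mycn at 23.4 FPKM (17.9 to 28.9), with Mlx at 21.7 FPKM, Max at 20.8 FPKM, Mxd4 at 12.1 FPKM, Myc at 12.1 FPKM, Mxd1 at 11.3 FPKM and Mxd3 at 7.18 FPKM. The bounds of each neighbouring pair in this order overlapped. Mxd3 and Mlx share their listed intervals with other genes, as given below. Over all libraries Mxd3 had a mean normalized count of 17.8 over 7.68 kb, and Mxi1 one of 1327 over 65.3 kb. For its length Mxd3 was thus counted far less than Mxi1, although their FPKM were close. The FPKM of Mxd3 is therefore not read as its own level, here or under the drugs. The places of Mxd3 and Mlx, and any member named as lowest, hold only for these pooled values. The order rests on pooled values with no value per replicate behind them.

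**Figure D1:**
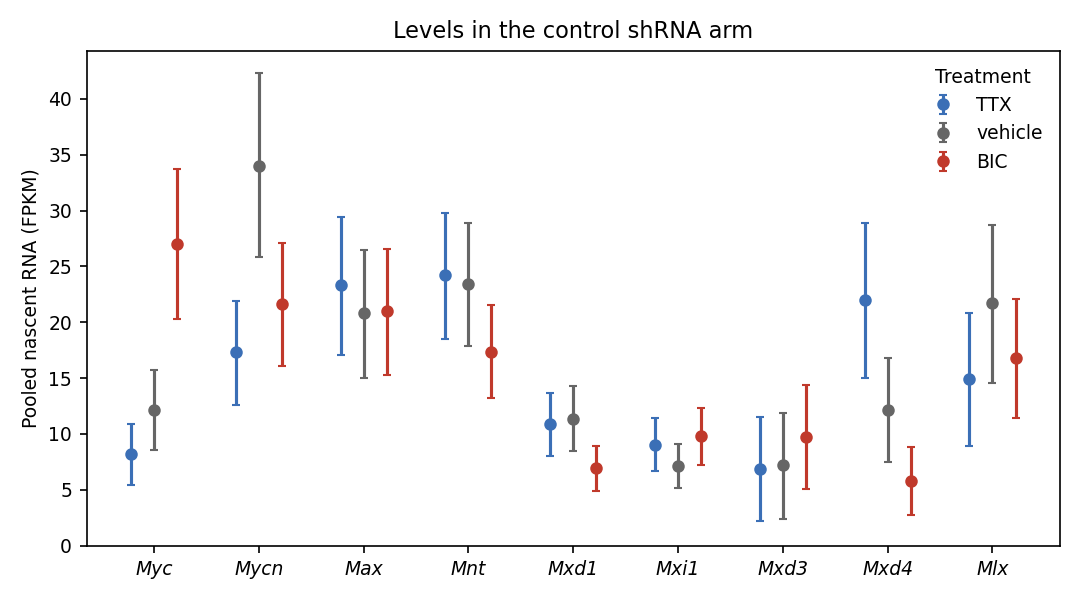
Pooled nascent RNA level in FPKM (y axis) of the 9 members (x axis) in the control shRNA arm, with points for TTX, vehicle and BIC and bars for the authors' bounds. Myc stands at 27.0 FPKM in BIC against 8.20 FPKM in TTX, and Mxd4 at 5.78 FPKM in BIC against 22.0 FPKM in TTX.

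Under the drugs other members led the order. In TTX, Mnt led at 24.2 FPKM (18.5 to 29.8), followed by Max at 23.3 FPKM and Mxd4 at 22.0 FPKM, while Mycn stood at 17.3 FPKM and Myc at 8.20 FPKM (5.47 to 10.9). In BIC, Myc led at 27.0 FPKM (20.3 to 33.7), followed by Mycn at 21.6 FPKM and Max at 21.0 FPKM, and Mxd4 was lowest at 5.78 FPKM (2.76 to 8.79). Neighbours in these orders again had bounds that overlapped, 8 of 8 pairs in each condition. Between drug and vehicle the bounds did not overlap for 2 of the 11 control-arm responses called in the comparison tables described next, Myc in BIC and Mycn in TTX, and the pooled levels had the sign of the fitted change in 11 of 11, with Max in BIC near 0 at a log2 ratio of 0.01. Mnt in BIC is 1 of the 11. Among the responses that were not called, Mxd3 in BIC had a log2 FPKM ratio of 0.44 beside a fitted -0.24.

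In the intervals of the authors' level table, which the submitters' processing notes place on mm9, the members lie on 7 chromosomes. Myc spans chr15:61816896-61821916 and Mycn chr12:12942899-12948642, both short genes of 5.02 and 5.74 kb. Max spans chr12:78038256-78063235, Mnt chr11:74644426-74659227, Mxd1 chr6:86597039-86619153 and Mxi1 chr19:53384996-53450300, the longest at 65.3 kb. Mxd4 spans chr5:34519229-34530359. Mxd3, at chr13:55423416-55431091, shares its listed interval with Prelid1, and Mlx, at chr11:100948604-100956749, with Psmc3ip, so reads of the neighbours may enter the levels of these 2 members.

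Drug responses were taken from the authors' deposited DESeq2 tables as the log2 change of a drug against vehicle within an arm, with its standard error and an adjusted p, and a call needs an adjusted p under 0.05. TTX changed 4 of the 9 members in shCtrl, 2 up and 2 down, where 26.7% of all tested genes were called, 11.8% up and 14.9% down. In shRai1 it changed 5 of 9, 2 up and 3 down, where 30.5% were called, 13.7% up and 16.8% down. BIC changed 7 of the 9 in each arm, 3 up and 4 down, with 34.4% of all genes called in shCtrl (17.4% up, 17.0% down) and 42.5% in shRai1 (21.3% in each direction). Without Mnt, whose responses share libraries with the contrasts that chose it, 4 of the other 8 were called in each of the TTX tables and 6 of 8 in each of the BIC tables. That share was above the one of all genes in each of the 4 tables, a difference that was not tested and rests on 8 genes. Except for Mxd3, the members had mean normalized counts of 219 to 1327, beside a median of 107 over the genes with a test. Calls are easier to reach at higher counts, and no share at matched counts was taken, here or for the lists below. The median of the 9 changes was -0.18 and -0.02 for TTX and -0.24 and -0.16 for BIC (shCtrl, then shRai1), beside 0.00 over all genes in each of the 4 tables. Each drug contrast uses the vehicle libraries of its arm, so the TTX and BIC changes of 1 arm are not independent.

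Markers of cell types were called in the same drug contrasts. Of 9 neuron markers, TTX gave 1 up and 4 down in shCtrl and 3 down in shRai1 (medians -0.14 and 0.01). Under BIC 8 neuron markers were called in each arm, 5 up and 3 down (medians 0.44 and 0.70). Of 8 oligodendrocyte-lineage markers, TTX gave 1 up and 4 down in shCtrl (median -0.60) and 5 up and none down in shRai1 (median 0.38), and BIC gave 2 down in shCtrl and 1 down in shRai1 (medians -0.26 and 0.05). Among 7 astrocyte markers TTX gave none up and 3 down in shCtrl (median -0.21), and 2 up and 1 down in shRai1 (median -0.12). For these markers BIC gave 2 down in shCtrl and 1 up in shRai1 (medians -0.17 and 0.02). Of 6 microglia markers, 3 had an adjusted p under TTX in each arm and none was called. Under BIC the microglial receptors Csf1r (1.11) and Cx3cr1 (0.92) rose in shCtrl and Cx3cr1 (0.60) in shRai1, in the authors' deposited tables. Of 5 vascular and meningeal markers none was called in shCtrl, and in shRai1 Pecam1 (0.75) rose under TTX and Dcn (-1.17) and Pdgfrb (-0.57) fell under BIC. Of 7 cell division genes, TTX gave 2 down in shCtrl and 2 up and 1 down in shRai1, and none was called under BIC. These counts stand beside 26.7% and 30.5% of all genes called for TTX and 34.4% and 42.5% for BIC. The part of these cell types in the responses of the members was not tested.

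**Figure D2:**
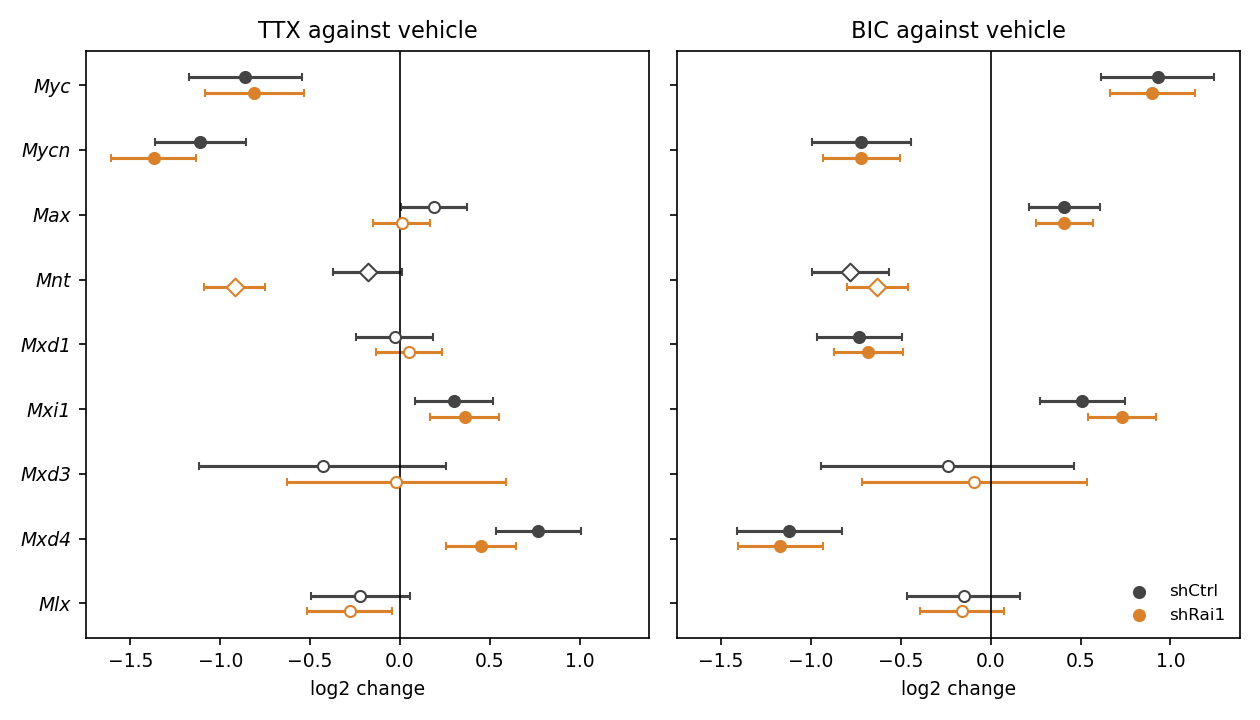
Log2 change against vehicle (x axis) of the 9 members (y axis) for TTX (left) and BIC (right), in shCtrl (grey) and shRai1 (orange). Bars are 95% intervals from the authors' standard errors, and filled points have an adjusted p under 0.05, with diamonds for Mnt, which carries no test here. Myc lies below 0 in TTX and above 0 in BIC in both arms, Mxd4 lies the other way round, and the 2 arms stand apart for Mnt in TTX (-0.18 and -0.92).

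The activators Myc and Mycn both fell under TTX and parted under BIC. In the authors' deposited tables Myc, the early-response activator, fell under TTX by 0.86 in shCtrl (SE 0.16, adjusted p = 5.48e-07), which is a nascent level 45.0% lower. In shRai1 it fell by 0.81 (SE 0.14, adjusted p = 6.20e-08). Under BIC it rose by 0.93 in shCtrl (SE 0.16, adjusted p = 2.51e-08), or 1.91-fold, and by 0.90 in shRai1 (SE 0.12, adjusted p = 4.97e-12). Of the 9 members, Myc was the one called down in TTX and up in BIC in both arms.

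Mycn, its paralog, fell under both drugs. The authors' deposited tables give -1.11 for TTX in shCtrl (SE 0.13, adjusted p = 1.18e-15) and -1.37 in shRai1 (SE 0.12, adjusted p = 9.89e-30), 53.6% and 61.2% lower. Under BIC the values are -0.72 (SE 0.14, adjusted p = 3.84e-06) and -0.72 (SE 0.11, adjusted p = 1.53e-09). Pooled control levels show the crossing of the pair: Mycn was above Myc in vehicle (34.0 against 12.1 FPKM) and TTX (17.3 against 8.20 FPKM), with bounds apart, and below it in BIC (21.6 against 27.0 FPKM), where the bounds overlapped.

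Max, the shared partner, rose under BIC by 0.41 in both arms in the authors' deposited tables (SE 0.10 and 0.081, adjusted p = 3.26e-04 and 1.74e-06 in shCtrl and shRai1). Under TTX its values were 0.19 (adjusted p = 0.121) and 0.01 (adjusted p = 0.955), which did not pass. The pooled FPKM of Max in the control arm gave a smaller difference for BIC, a log2 ratio of 0.01 beside the tested 0.41. The 2 kinds of value come from different steps by the authors, and why they differ was not tested.

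Among the repressors of the Mxd family, Mxd4 responded to both drugs in opposite directions, and opposite to Myc. It rose under TTX by 0.77 in shCtrl (SE 0.12, adjusted p = 2.69e-09) and by 0.45 in shRai1 (SE 0.10, adjusted p = 1.20e-04). Under BIC it fell by 1.12 (SE 0.15, adjusted p = 3.75e-13) and by 1.17 (SE 0.12, adjusted p = 1.00e-22), to 54.1% and 55.7% below vehicle. Mxi1, also known as Mxd2, rose under both drugs: by 0.30 (adjusted p = 0.0281) and 0.36 (adjusted p = 0.00161) for TTX, and by 0.51 (adjusted p = 2.19e-04) and 0.73 (adjusted p = 5.32e-13) for BIC. These are values of the authors' deposited tables in shCtrl and then shRai1.

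Mxd1 (Mad1), the founding member of the family, fell under BIC by 0.73 in shCtrl (SE 0.12, adjusted p = 2.50e-08) and by 0.68 in shRai1 (SE 0.097, adjusted p = 2.65e-11), and its TTX values in the authors' deposited tables were -0.03 and 0.05, neither of which passed. Mxd3 was the least counted member, with a mean normalized count of 17.8 over the libraries beside 219 to 1327 for the others, and its standard errors were 0.31 to 0.36 over the 4 responses, so that the 95% interval for TTX in shRai1 ran from -0.64 to 0.59. None of its 4 responses passed. Within the Mxd family the 4 genes therefore showed 4 different sets of calls under the 2 drugs, from up and down (Mxd4) to up in both (Mxi1), down in BIC (Mxd1) and no call (Mxd3).

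Mlx, the partner of the Mondo factors, had values of -0.15 to -0.28 over the 4 responses, none of which passed alone. Averaged over the arms, a contrast computed here from 2 deposited changes that share no library, its TTX response was -0.25 (adjusted p = 0.0279) and its BIC response -0.16 (adjusted p = 0.196). These averages called 6 of the 9 members for TTX, 2 up and 4 down, where 33.1% of all genes were called (15.5% up, 17.5% down), and 7 of 9 for BIC, 3 up and 4 down, where 46.0% were called (22.4% up, 23.6% down). Mnt is among the members counted in both. Besides Mlx, the averages added no member to the calls of the single arms.

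Mnt, the ubiquitous repressor of the network, was lower under BIC than in vehicle in both arms of the authors' deposited tables, at -0.78 in shCtrl (SE 0.11) and -0.63 in shRai1 (SE 0.086), or 41.6% and 35.6% lower. Its TTX response was -0.18 in shCtrl (SE 0.098) and -0.92 in shRai1 (SE 0.086), a level 47.2% below shRai1 vehicle. The TTX and BIC libraries are those of the contrasts for which Mnt was chosen, so these 4 values are a description with no test. The pooled FPKM of the control arm gave Mnt a log2 ratio of -0.43 for BIC, beside the fitted -0.78, and of 0.05 for TTX, the other sign to the fitted -0.18. In bulk nascent RNA, fewer cells that transcribe a gene and less transcription per cell cannot be told apart, and this holds for each change given here.

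The difference in Mnt between the libraries labelled shRai1 and shCtrl had another sign under TTX than in vehicle and BIC. In vehicle, the contrast that did not choose it, Mnt was higher by 0.35 (SE 0.096, adjusted p = 0.0428), or 27.3%, in the authors' deposited table, where 0.857% of tested genes were called, 0.126% higher and 0.730% lower. This call was lost when the adjustment covered all genes with a test (adjusted p = 0.0604). Under TTX Mnt was 0.39 lower (SE 0.088, 95% interval -0.57 to -0.22), or 23.8%, and under BIC it was 0.49 higher (SE 0.10, 0.29 to 0.69), or 40.5%. For these 2 tables, which chose Mnt, the share of all genes called was 0.0283% (6 genes) and 0.00944% (2 genes), and nothing is read from it.

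None of the other 8 members was called in any of the 3 contrasts of shRai1 with shCtrl in the authors' deposited DESeq2 tables, and 0 of the 8 had an unadjusted p under 0.05 in any of them, beside 8.17% of all genes in vehicle, 3.30% under TTX and 2.93% under BIC. In vehicle their values ran from -0.06 (Mxi1) to 0.22 (Mxd4), with a lowest adjusted p of 0.480, and Mxd3 has no adjusted p there. Under TTX they ran from -0.14 (Mycn) to 0.50 (Mxd3, SE 0.33), and under BIC from 0.01 (Myc) to 0.24 (Mxd3). For Myc the 95% interval was -0.25 to 0.33 in vehicle, and it was -0.20 to 0.38 under TTX and -0.26 to 0.27 under BIC. Those of Max were -0.01 to 0.36, -0.17 to 0.15 and -0.01 to 0.35 in the same order.

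**Figure D3:**
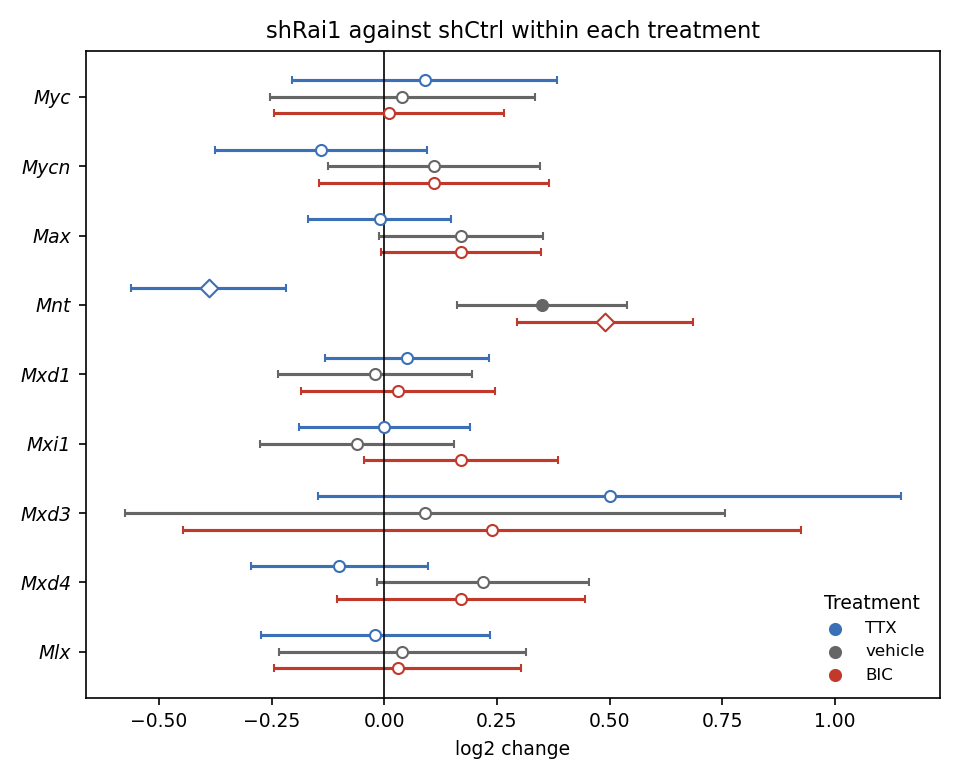
Log2 difference between the libraries labelled shRai1 and shCtrl (x axis) within TTX, vehicle and BIC for the 9 members (y axis), with 95% intervals from the authors' standard errors and filled points for an adjusted p under 0.05. Diamonds mark the 2 contrasts that chose Mnt, which carry no test. Mnt stands at -0.39 in TTX, 0.35 in vehicle and 0.49 in BIC, and the intervals of the other 8 members cover 0.

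Set as levels relative to shCtrl vehicle, rebuilt from the deposited changes, Mnt stood at -0.18 in TTX and -0.78 in BIC in shCtrl. In shRai1 it stood at 0.35 in vehicle, and at -0.57 under TTX and -0.29 under BIC. The shRai1 line thus started above the control line, crossed it under TTX and stayed above it under BIC. Myc gave nearly the same levels in both arms, -0.86 and -0.77 in TTX and 0.93 and 0.94 in BIC. Mycn stood at -1.11 and -1.25 in TTX and at -0.72 and -0.61 in BIC.

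**Figure D4:**
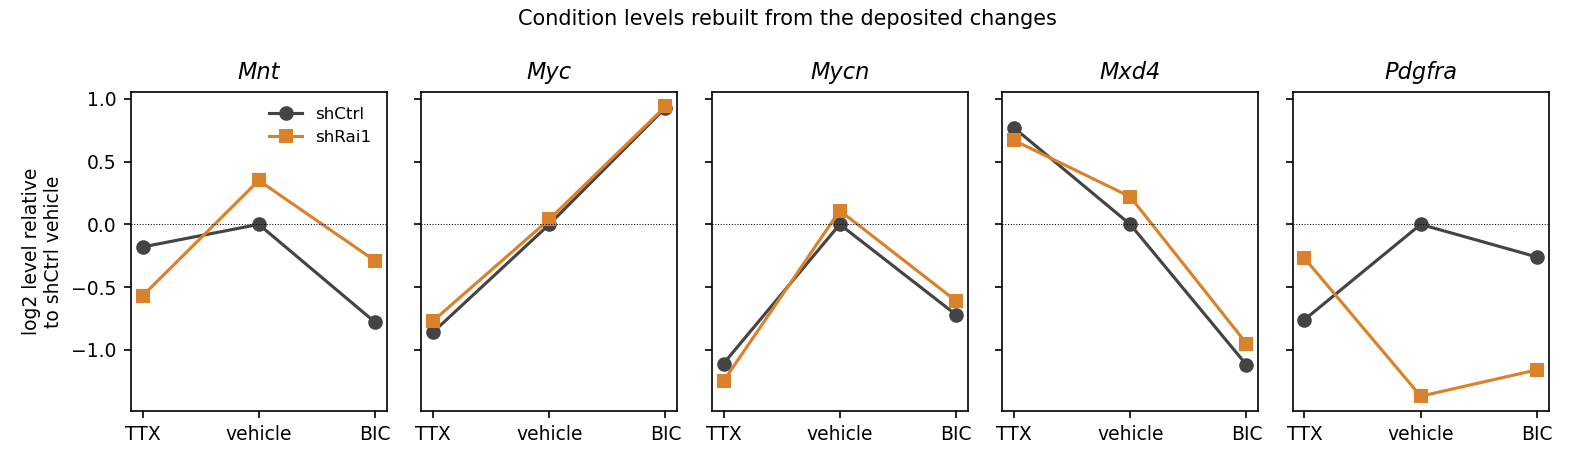
Log2 level relative to shCtrl vehicle (y axis) in TTX, vehicle and BIC (x axis) for Mnt, Myc, Mycn, Mxd4 and the oligodendrocyte-precursor marker Pdgfra, in shCtrl (grey circles) and shRai1 (orange squares). Lines join values of 1 arm and the points have no error bars. The arms cross between TTX and vehicle for Mnt and for Pdgfra, in opposite directions.

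Whether a drug response differed between the arms was tested from the difference of the 2 responses, which share no library. For TTX the difference for Mnt was -0.74 (SE 0.13), given as a description with no test because it contains a contrast that chose Mnt, and 0.943% of all genes were called there. None of the other 8 members was called. Mxd4 had the lowest unadjusted p among them, with a difference of -0.32 (SE 0.16, unadjusted p = 0.0415, adjusted p = 0.513). For Mycn it was -0.26 (95% interval -0.60 to 0.09) and for Myc 0.05 (-0.35 to 0.46).

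For BIC none of the 8 members other than Mnt was called in this Wald test, and 0 of them had an unadjusted p under 0.05, beside 2.66% of all genes. The differences ran from -0.05 (Mxd4) to 0.22 (Mxi1, 95% interval -0.08 to 0.53), and 0.0219% of all genes were called. Myc had a difference of -0.03 (-0.42 to 0.36). Mnt had one of 0.14 (-0.13 to 0.42), a description since a contrast that chose it is part of this difference. The contrast of shRai1 with shCtrl in BIC minus that in TTX was 0.88 for Mnt (SE 0.13, 95% interval 0.62 to 1.15), again a description, beside -0.26 (Mxd3) to 0.27 (Mxd4) for the other 8, none called, with 0.181% of all genes called.

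In each treatment, the median difference of oligodendrocyte-lineage markers between the arms had the opposite sign to that of Mnt. Of the 8 markers, 4 fell in shRai1 vehicle and none rose, where 0.857% of all genes were called, with a median of -0.76: Pdgfra, the growth-factor receptor of oligodendrocyte precursors, was at -1.37, Cspg4 (NG2) at -0.78, Olig1 at -0.73 and Olig2 at -0.60 in the authors' deposited table. Under TTX the median was 0.44 with 1 marker called, Pdgfra at 0.50, and under BIC it was -0.41 with 1 called, Pdgfra at -0.90, where 0.0283% and 0.00944% of all genes were called. The difference of the TTX responses between the arms had a median of 1.13, with 6 of 8 markers called higher, where 0.943% of all genes were called in either direction. For each gene this difference equals the contrast of shRai1 with shCtrl in TTX minus that in vehicle. It restates those contrasts, here and for the lists below, and rests on the same 2 shCtrl vehicle libraries. Pdgfra had a call in each of the 3 contrasts of shRai1 with shCtrl, and it was named after its values were seen.

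Among 7 cell division genes, Mki67 (-0.96) and Top2a (-0.72) fell in shRai1 vehicle, where 0.857% of all genes were called and the list's median was -0.50. In that contrast 4 of the 7 had an unadjusted p under 0.05, beside 8.17% of all genes. Under TTX and BIC the medians were 0.05 and -0.39, with no call and 1 of 7 genes at an unadjusted p under 0.05 in each, beside 3.30% and 2.93% of all genes. In the difference of the TTX responses Mki67 was called higher, at 1.32 (adjusted p = 0.0109), and the list's median was 0.55, with 4 of 7 at an unadjusted p under 0.05 beside 7.84% of all genes. The part of the oligodendrocyte-lineage and cell division genes in the values of Mnt was not tested. Of 9 neuron markers, 8 had values below 0 in vehicle, none of them called, and Rbfox3 (NeuN) rose by 0.24 (adjusted p = 0.0494). In all 4 of the 9 had an unadjusted p under 0.05 there, beside 8.17% of all genes. In the difference of the TTX responses 5 were above 0 and 4 below (median 0.01), and Rbfox3 was called lower, at -0.40 (adjusted p = 0.00485). The neuron medians were -0.09 in vehicle, -0.08 under TTX and 0.00 under BIC. Of 7 astrocyte markers all 7 had values below 0 in vehicle. Aldoc was called, at -0.56, where 0.857% of all genes were, and 4 of 7 had an unadjusted p under 0.05, beside 8.17% of all genes. The astrocyte medians were -0.25, -0.07 and -0.06 in the same order. In the difference of the TTX responses 6 astrocyte markers were above 0 and 1 below (median 0.18), with none called. There 2 of 7 had an unadjusted p under 0.05, beside 7.84% of all genes. Their part in the values of Mnt was not tested either.

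Genes whose levels over the 6 conditions were most like those of Mnt were sought among the 12111 genes that reached both a mean normalized count of 50 and a mean level of 0.5 FPKM. The highest Pearson correlations, over 6 condition values that share 1 fit, were those of Timm10 (r = 0.992), a chaperone of mitochondrial protein import, Mdh2 (0.990), mitochondrial malate dehydrogenase, Clip2 (0.988), a microtubule-end protein, Syvn1 (0.985), an ubiquitin ligase of the endoplasmic reticulum, and Rpl28 (0.985), a ribosomal protein. Their ranges were small beside that of Mnt: Timm10 ran from -0.30 in shCtrl BIC to 0.15 in shRai1 vehicle, while Mnt ran from -0.78 to 0.35. The correlations are given as a description, with no test. Within the network, the correlation with Mnt was 0.764 for Mlx, 0.725 for Mycn, 0.535 for Mxd1, 0.370 for Mxd4, -0.200 for Myc, -0.454 for Max and -0.721 for Mxi1. The 4 oligodendrocyte-lineage markers called in vehicle were at -0.528 (Pdgfra), -0.419 (Cspg4), -0.214 (Olig2) and -0.019 (Olig1).

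Other DNA-binding factors work with the network. In the averages over the arms used for the lists from here on, 33.1% of all genes were called for TTX and 46.0% for BIC. Counts of a list near these shares are no result about the list. Of Mycl, Mga, Mlxip, Mlxipl and Zbtb17, 2 fell in the TTX response averaged over the arms: Zbtb17 (Miz1, the zinc-finger partner through which Myc represses) by 0.27 (SE 0.067, adjusted p = 3.29e-04) and Mlxip (MondoA) by 0.15 (SE 0.055, adjusted p = 0.0211). In BIC Zbtb17 rose by 0.52 (SE 0.070, adjusted p = 1.47e-12) and no other was called, so that 2 of 5 were called for TTX and 1 of 5 for BIC. Mga, a Max partner with a T-box, was at 0.05 and -0.14, and neither value passed. None of the 5 was called in a contrast of shRai1 with shCtrl. For this and the other lists, genes at an unadjusted p under 0.05 are to be read beside their share over all genes, 8.17% in vehicle, 3.30% under TTX and 2.93% under BIC. They were 1 of 5 in vehicle and 0 of 5 under each drug.

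Mnt and Mxd proteins recruit the Sin3 and Hdac corepressor. Of 12 of its genes, 6 were called for TTX, where 33.1% of all genes were, and 6 for BIC, where 46.0% were. Under TTX 3 rose and 3 fell, with a median of 0.03. Ing1 rose by 0.39 and the deacetylase Hdac1 by 0.32, while the histone-binding subunit Rbbp7 fell by 0.62 and Ing2 by 0.42. Under BIC 4 rose and 2 fell (median 0.01): Sap30, a subunit of the complex, rose by 2.17 (SE 0.15, adjusted p = 2.52e-45) and Ing2 by 0.81, while Suds3 fell by 0.55 and the scaffold Sin3a by 0.41. No gene of this list was called in a contrast of shRai1 with shCtrl in the DESeq2 tables, where an unadjusted p under 0.05 was found for 2 of 12 genes in vehicle, 1 under TTX and 0 under BIC, beside 8.17%, 3.30% and 2.93% of all genes.

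On the activating side, 8 cofactors of Myc gave 1 rise and 3 falls under TTX (Kat2a 0.31, Kat5 -0.41, Ruvbl2 -0.24) and 1 rise and 2 falls under BIC (Wdr5 0.45, Kat2a -0.39, Kat5 -0.29). Kat2a (Gcn5) and Kat5 (Tip60) are acetyltransferases and Wdr5 is a scaffold of histone methyltransferases. Among 8 genes of Myc protein turnover none rose and 3 fell under TTX, and 4 rose and none fell under BIC. The deubiquitinase Usp28, which opposes the ubiquitin ligase Fbxw7 on Myc, fell by 0.76 under TTX (SE 0.069, adjusted p = 9.57e-27) and rose by 0.68 under BIC (SE 0.073, adjusted p = 1.12e-19), while Fbxw7 fell by 0.45 under TTX and was at 0.07 under BIC, which did not pass. The ligase Trim32 rose by 0.56 under BIC. Of the cofactors, 4 of 8 were called for TTX and 3 of 8 for BIC, and of the turnover genes 3 of 8 and 4 of 8, beside 33.1% and 46.0% of all genes. Neither list had a call in a contrast of shRai1 with shCtrl in the DESeq2 tables. An unadjusted p under 0.05 was found for 3 of 8 cofactors in vehicle, 0 under TTX and 1 under BIC, and for 1, 0 and 1 of 8 turnover genes, beside 8.17%, 3.30% and 2.93% of all genes. In the difference of the TTX responses it was found for 3 of 8 cofactors, none called, with 7 below 0 (median -0.18). There 1 of 8 turnover genes was under 0.05, also not called, and the share of all genes was 7.84%.

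Of 30 genes known as activated by Myc, more fell than rose under TTX. TTX called 0 up and 10 down in shCtrl (median -0.22) and 1 up and 17 down in shRai1 (median -0.32), where 14.9% and 16.8% of all genes were called lower. Averaged over the arms, 18 fell and 1 rose, with a median of -0.23, where 17.5% of all genes were called lower. Nolc1, a nucleolar assembly factor, fell by 1.06 (SE 0.086, adjusted p = 6.03e-33) and the RNA helicase Ddx21 by 0.87 (SE 0.069, adjusted p = 1.45e-34). The ribosome assembly factor Wdr12 was the one that rose, by 0.34 (SE 0.10, adjusted p = 0.00342).

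Under BIC the same list gave 6 up and 2 down in shCtrl (median 0.13) and 8 up and 5 down in shRai1 (median 0.10), and 9 up and 7 down in the average over the arms, a median of 0.06. These are 8, 13 and 16 of 30 genes, beside 34.4%, 42.5% and 46.0% of all genes called, so the counts under BIC are near the background and are no result about the list. Odc1, the rate-limiting enzyme of polyamine synthesis and a classic Myc target, rose by 1.22 (SE 0.071, adjusted p = 6.04e-64), and the cap-binding factor Eif4e by 0.83 (SE 0.064, adjusted p = 1.34e-37). Cdk4, a cell cycle kinase, fell by 0.50 (SE 0.10, adjusted p = 2.23e-06) and Rrp9, a factor of ribosomal RNA processing, by 0.46 (SE 0.11, adjusted p = 6.14e-05). The fall of the list under TTX and the fall of Myc and Mycn occurred in the same libraries, and a link between them was not tested. In the contrasts of shRai1 with shCtrl none of the 30 was called by DESeq2, and an unadjusted p under 0.05 was found for 2 in vehicle, 2 under TTX and 3 under BIC, beside 8.17%, 3.30% and 2.93% of all genes. None was called in a difference between arms or treatments. In the TTX responses 4 of 30 were under 0.05 unadjusted, beside 7.84% of all genes, with 23 below 0 (median -0.13). For the BIC responses it was 1 of 30, beside 2.66%. In BIC minus TTX it was 7 of 30, beside 4.60%, with 22 above 0 (median 0.11).

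**Figure D5:**
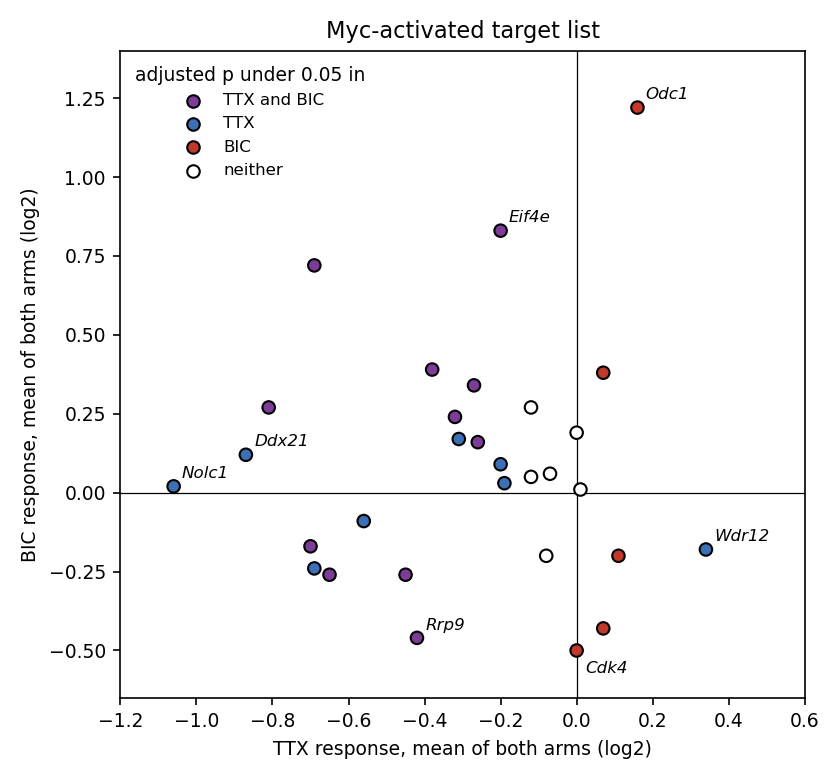
Log2 response to TTX (x axis) and BIC (y axis), each the mean of both arms, of 30 genes known as activated by Myc, with colour for the drug in which the adjusted p was under 0.05. Of the points, 18 lie below 0 in TTX with a call and 1, Wdr12, above it, and Odc1 is highest in BIC at 1.22.

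Genes known as repressed by Myc moved in both directions. Of 8, 1 rose and 3 fell under TTX: Ndrg1, a stress and differentiation gene, rose by 1.38 (SE 0.10, adjusted p = 3.82e-41), and Gadd45g, a growth arrest gene that neuronal activity also induces, fell by 1.77 (SE 0.093, adjusted p = 9.03e-79). The cell cycle inhibitor Cdkn2b fell by 0.52. Under BIC 4 rose and 1 fell, with Gadd45g at 2.06 (SE 0.090, adjusted p = 7.91e-113), Gadd45a at 0.96 and Ndrg2 at -0.34. These are 4 and 5 of 8 genes, beside 33.1% and 46.0% of all genes. In the contrast of shRai1 with shCtrl, Gadd45g fell in vehicle by 0.46 (SE 0.13, adjusted p = 0.0473) and was at 0.18 in TTX and 0.10 in BIC, neither of which passed, where 0.857%, 0.0283% and 0.00944% of all genes were called. Of the 8 genes, 2 had an unadjusted p under 0.05 in vehicle, 1 under TTX and 0 under BIC, beside 8.17%, 3.30% and 2.93% of all genes, and 3 did in the difference of the TTX responses, beside 7.84%. Gadd45g was the one gene of the lists of partners, cofactors and targets called in any such contrast or in any difference between arms or treatments. Counts without adjustment were given above for cofactors, turnover genes and Myc-activated genes. In the difference of the TTX responses 1 of 12 Sin3 and Hdac genes and 1 of 7 Mondo and Mlx targets were also under 0.05. These are single genes beside 7.84% of all genes and are no result about their lists.

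Targets of the Mondo and Mlx pair were nearly all called, in both directions. Of 7 genes, 3 rose and 3 fell under TTX: Txnip, an inhibitor of glucose uptake and the best-known MondoA target, rose by 1.72 (SE 0.093, adjusted p = 4.91e-73) and its relative Arrdc4 by 1.09 (SE 0.078, adjusted p = 1.22e-42), while the lipid synthesis genes Fasn and Elovl6 fell by 0.49 and 0.44. Under BIC 1 rose and 5 fell, with Arrdc4 at 0.86, the transcription factor Klf10 at -1.02, Fasn at -0.75 and Txnip at -0.65 (SE 0.11, adjusted p = 1.42e-08). The median of the list was -0.02 for TTX and -0.49 for BIC, and 6 of 7 were called for each, beside 33.1% and 46.0% of all genes. Acaca, Fasn and Elovl6 fell and Arrdc4 rose under both drugs, while Txnip and Klf10 rose under TTX and fell under BIC. In the same averages Mlx stood at -0.25 and -0.16 and Mlxip at -0.15 and 0.03 for TTX and BIC. No gene of this list was called in a contrast of shRai1 with shCtrl, with 1, 0 and 1 of 7 genes under an unadjusted p of 0.05 in vehicle, TTX and BIC, beside 8.17%, 3.30% and 2.93% of all genes.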

How the data were processed

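Nascent RNA was compared in 16 Bru-seq libraries of 6 groups, and 12 ChIP-seq samples were not used here. The submitters' processing notes name TopHat2 2.1.0, Bowtie2 2.2.6, DESeq2 and mm9. The authors' 7 comparison tables give per gene a mean normalized count, which is a signal averaged over libraries, a log2 fold change with standard error, the Wald score of that change, and its p-value before and after adjustment, per the file headers. Their mean counts are the same in all 7 tables and the deposited log2 changes add up to within 1.00e-09, so they come from 1 fit. Genes the authors' filter left without an adjusted p-value were not called. Per the file headers, the authors' FPKM table holds for each condition 1 pooled value and its bounds. Its shCtrl columns were used as levels, and its shRai1 columns, whose values did not follow the deposited comparisons of shRai1 with shCtrl, entered only the mean FPKM.

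The vehicle table of shRai1 against shCtrl has no gene names in its deposited form. Its rows were named by their unique mean count (20107 genes, with 1085 left unnamed at mean counts of at most 0.306), and with another table hidden 20107 of 20107 names were recovered. Differences and averages of deposited changes that share no library were computed in Python 3.11.15 with pandas 2.3.3 and SciPy 1.17.1, with two-sided Wald tests and Benjamini-Hochberg adjustment over the 18241 genes whose mean level reached 0.1 FPKM. Tested on simulated data of 12287 genes, with 200 changed by 1 log2 unit, the 5 combined contrasts recovered 88.5% to 100% and made 7 to 15 false calls. The simulation speaks only for the computation and for changes of that size. Differences of the members between arms or treatments were smaller, at most 0.88 (Mnt), and recovery at such sizes was not tested. With no value per library, it cannot show whether the authors' standard errors are right.

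All 9 members are named throughout. From each other list the text names genes called in a contrast of shRai1 with shCtrl or in a difference, and up to 2 rises and 2 falls per averaged response with a mean of at least 0.5 FPKM. Pdgfra and other markers beyond this rule, and the further responses of the Mondo and Mlx targets, were named after their values were seen. The members, the lists and the tests were chosen with earlier results of these data known. Replicates were separate pools of embryos. Depth per library is unknown, so precision is given as the authors' standard errors. Alternatives were other thresholds and filters, centring on the median gene, errors from the other tables and pseudocounts.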

Additional observations from a re-analysis of the deposited data

Results flagged for a closer look

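The TTX response of Mnt differed between the arms by -0.74 (shRai1 minus shCtrl, log2), the response being -0.18 in shCtrl and -0.92 in shRai1. The difference between shRai1 and shCtrl in Mnt was 0.88 higher in BIC than in TTX. Each stood out as a difference between groups, and each contains a contrast for which Mnt was chosen, so both are descriptions with no test. Over the same treatments the 8 oligodendrocyte-lineage markers had 6 called higher in the first difference (median 1.13) and 3 called lower in the second, where 0.943% and 0.181% of all genes were called, and their part in the result was not tested.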

How the results depend on the processing

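Of 555 member values under alternatives, 547 kept their sign and their side of the threshold, 6 lost the call, 1 gained it and 1 changed sign: the difference of Max between shRai1 and shCtrl in TTX was 0.0024 after centring on the median gene, at an adjusted p of 1.000. Only centring, with 107 of these values, could change a sign, since the other settings keep the log2 change. The call of Mnt in vehicle was lost without the authors' filter (adjusted p = 0.0604), which left 0 members and 81 genes called because more genes were adjusted over. At a threshold of 0.01 the contrasts of shRai1 with shCtrl called 0 members each and 35 genes for vehicle, 2 for TTX and 1 for BIC. The difference of TTX responses then had 62 genes, that of BIC responses 0, and BIC minus TTX 20. At 0.1 the counts were 204 in vehicle, 5 in BIC, 272 for the TTX responses and 61 for BIC minus TTX. Over genes with at least 0.5 FPKM, the BIC contrast had 5. Also at 0.01, Mxi1 (TTX in shCtrl) and Mlx (averaged TTX) lost their calls, and at 0.1 Mlx gained one for TTX in shRai1. Over the filters and centring tried, the adjusted p for Mnt in vehicle ranged from 0.0402 to 0.0604. Counts of members called under TTX and BIC include Mnt, which those contrasts chose, so they say nothing about its stability. All 36 pooled FPKM ratios stayed within what their deposited bounds allow under other pseudocounts, which were small beside the levels, so little movement was possible. No paired analysis was possible because the files used here hold no value per library, and for the same reason no library could be left out. That shCtrl vehicle has 2 libraries limits every contrast with it, and Mxd3 is limited by its low count.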
